A study of Homo sapiens with 16 samples.

Results

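Olfactory receptor genes encode the G protein-coupled receptors with which neurons of the nose detect odorants, and chromosome 11 carries the largest share of them in the human genome. The genes described here are the protein-coding genes placed on chromosome 11 of GRCh38 whose symbol is OR, a family number, a subfamily letter and a member number. The pattern matched 171 genes, 3 of which (OR8U8, OR8U9 and OR9G9) are listed on sequences other than the chromosome and were not used, which left 168 of the 19821 protein-coding genes placed on chromosomes 1 to 22 and X. A gene counted as having a peak when a peak summit lay inside it or within 10 kb of either end.

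The assay was ATAC-seq, which reads where a transposase can insert adapters into accessible DNA, and the cells were wild-type MDA-MB-231, a widely used human breast adenocarcinoma line. There were 16 samples, 4 in each of 4 groups: selected cells on soft gel, ancestral cells on soft gel, selected cells on stiff gel and ancestral cells on stiff gel. Cells grew on polyacrylamide carrying collagen I, soft gels of 1 kPa and stiff gels of 308 kPa. Selection ran for 75 days, with 20000 cells replated about every 7 days on gel of unchanged stiffness. The labels describe such passaging on both gels. They do not say whether the selected cells on stiff gel were passaged on stiff gel or were moved there from soft gel, so those cells are called selected on stiff gel throughout. Every group is the same line, and nothing in the labels says that the 4 samples of a group came from separate selections.

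In an olfactory sensory neuron a single receptor allele is transcribed, and the odorant signal runs from the receptor through a G protein and adenylyl cyclase to a cyclic nucleotide-gated channel. The unchosen receptors inside that neuron are held in heterochromatin. Human receptors fall into class I, the fish-like families 51, 52 and 56, which lie together near the tip of the short arm around the beta-globin genes, and class II, which holds all other families. In a breast cancer line these genes serve here as a control for silent chromatin, though ATAC-seq does not measure silence itself.

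The deposited data give 1 peak list for each group, with 129755 peaks for selected cells on soft gel, 109578 for ancestral cells on soft gel, 122591 for selected cells on stiff gel and 116043 for ancestral cells on stiff gel. There is therefore no spread between samples and no test between groups, and the 95% intervals cover counting error only. Neighbouring genes share peaks, which such intervals do not allow for. The authors' fold enrichment sets the pileup height at the summit over a background pileup that differs between lists, at 13.5 in selected and 16.3 in ancestral cells on soft gel, and at 12.6 in selected and 20.2 in ancestral cells on stiff gel. It is used to describe peaks within a list. Peaks with a −log10 q-value of at least 10, called strong here, made up 57.5% of the list of selected cells and 78.7% of that of ancestral cells on soft gel, and 63.2% and 81.4% in the same order on stiff gel. The q-value limit fell at different fold enrichments in the lists. On soft gel a peak of 3.18 missed it in selected cells and one of 3.06 passed it in ancestral cells. On stiff gel one of 3.23 missed it in selected cells and one of 2.83 passed it in ancestral cells. Counts of strong peaks therefore do not compare lists at equal fold enrichment. A bulk peak cannot separate a site open in fewer cells from one less open in every cell. All 6 genes fixed as mesenchymal breast cancer markers (VIM, CD44, EGFR, AXL, CAV1 and MSN) had a summit within 10 kb in each list. So did all 7 luminal and all 4 blood markers, so a summit within 10 kb does not tell cell types apart. Among the 6 mesenchymal markers, a peak overlapped the promoters of 4 in each list.

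The RefSeq promoter table (GRCh38.p14, 250 bases before to 50 after the annotated start) held 135 of the 168 genes, and peaks overlapped the promoters of just 2 of them, OR52N2 and OR51S1. Their sequences are shown because they are the receptor promoters that carried a peak, each beside the nearest receptor promoter in the table whose gene had no summit within 10 kb in any list. They are written 5′ to 3′ on the gene's strand, with capitals for CpG dinucleotides and for the letters TGANTCA, the AP-1 motif. OR52N2 lies at chr11:5808674-5808973 on the plus strand, OR52N1 at chr11:5791216-5791515 on the minus strand, OR51S1 at chr11:4849159-4849458 on the minus strand and OR52R1 at chr11:4804331-4804630 on the minus strand.
OR52N2: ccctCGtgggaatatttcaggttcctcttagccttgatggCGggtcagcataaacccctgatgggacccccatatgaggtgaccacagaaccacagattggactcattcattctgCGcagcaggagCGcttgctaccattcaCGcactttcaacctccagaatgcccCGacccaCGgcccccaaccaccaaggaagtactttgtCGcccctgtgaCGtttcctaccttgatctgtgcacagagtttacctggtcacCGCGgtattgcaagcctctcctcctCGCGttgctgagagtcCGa
OR52N1: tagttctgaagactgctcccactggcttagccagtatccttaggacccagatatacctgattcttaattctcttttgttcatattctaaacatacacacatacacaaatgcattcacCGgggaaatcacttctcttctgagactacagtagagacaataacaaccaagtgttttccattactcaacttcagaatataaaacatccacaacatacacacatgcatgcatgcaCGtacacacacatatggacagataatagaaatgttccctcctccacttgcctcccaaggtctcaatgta
OR51S1: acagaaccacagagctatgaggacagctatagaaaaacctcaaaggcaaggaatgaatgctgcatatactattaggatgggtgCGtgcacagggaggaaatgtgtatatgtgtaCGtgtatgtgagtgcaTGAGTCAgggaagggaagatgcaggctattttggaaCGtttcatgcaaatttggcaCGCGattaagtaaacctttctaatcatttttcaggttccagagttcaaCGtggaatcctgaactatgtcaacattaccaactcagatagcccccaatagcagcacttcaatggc
OR52R1: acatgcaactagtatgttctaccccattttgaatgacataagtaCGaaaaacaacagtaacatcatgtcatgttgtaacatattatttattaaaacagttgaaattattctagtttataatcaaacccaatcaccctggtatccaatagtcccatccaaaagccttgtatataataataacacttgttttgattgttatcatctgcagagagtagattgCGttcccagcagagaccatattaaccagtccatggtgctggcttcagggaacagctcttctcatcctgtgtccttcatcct
The OR52N2 promoter held 14 CpG dinucleotides at a GC content of 55.3%, and a peak covered it in all 4 lists, with summits at 5808658 in selected and 5808662 in ancestral cells on soft gel and at 5808662 in selected and 5808664 in ancestral cells on stiff gel. The OR51S1 promoter held 6 CpG dinucleotides at 43.3% GC and 1 match to TGANTCA, starting at base 131 of the printed sequence. Its peak was listed in neither list of selected cells and in both lists of ancestral cells, with the summit at 4849343 on soft and 4849349 on stiff gel. The promoters without a peak held 2 CpG dinucleotides each, at 40% GC for OR52N1 and 36.7% for OR52R1, and no TGANTCA.

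The first question was how many of these receptor genes had any listed peak nearby. Most had none: 121 of 168 genes (72.0%; 95% interval 64.6% to 78.7%) were without a summit within 10 kb in all 4 lists, and 47 (28.0%) had one in at least 1 list, against 92.6% of all protein-coding genes. In selected cells on soft gel 29 genes had a peak (17.3%; 11.9% to 23.8%), against 89.7% of all protein-coding genes. In ancestral cells on soft gel 35 did (20.8%; 15.0% to 27.8%), against 89.7%. In selected cells on stiff gel the number was also 35, against 89.7%, and in ancestral cells on stiff gel it was 34 (20.2%; 14.4% to 27.1%), against 90.3%. The intervals of the 4 lists overlap. A peak in every list was present at 22 receptor genes (13.1%), against 86.8% of all protein-coding genes. Of the other genes with a peak, 11 had it in 1 list, 8 in 2 and 6 in 3. How reads that match several places were treated is not stated, so an absent peak need not mean closed DNA.

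Receptor genes are short, with a median length of 1103 bp against 18221 bp for the other 1129 protein-coding genes of chromosome 11, so their windows are narrower. With windows of equal size, 10 kb to either side of the gene's midpoint, a summit was found at 11.9% of the receptor genes in selected cells and 13.1% in ancestral cells on soft gel, and at 14.3% in selected cells and 12.5% in ancestral cells on stiff gel. The other genes of the chromosome stood at 72.3% in selected cells and 70.0% in ancestral cells on soft gel, and at 70.5% in selected cells and 71.0% in ancestral cells on stiff gel. The 221 olfactory receptor genes of other chromosomes stood at 17.2% to 21.3% over the 4 lists.

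Counted per length of DNA, the joined receptor windows (3.46 Mb) held 29 summits in selected and 40 in ancestral cells on soft gel, or 8.37 (5.61 to 12.0) and 11.6 (8.25 to 15.7) per Mb. On stiff gel they held 34 in selected and 40 in ancestral cells, or 9.82 (6.80 to 13.7) and 11.6 per Mb. The windows of other protein-coding genes of chromosome 11 held 80.6 per Mb in selected and 63.8 in ancestral cells on soft gel, and 76.2 in selected and 65.4 in ancestral cells on stiff gel. There the lists of selected cells had the more summits, while at the receptor genes the lists of ancestral cells did, by 11 summits on soft gel and 6 on stiff gel, with intervals that overlap. Among strong peaks the contrast was not seen: the other genes of the chromosome held 2925 in selected and 3239 in ancestral cells on soft gel, and 3018 in selected and 3512 in ancestral cells on stiff gel. The 205 receptor pseudogenes of chromosome 11, many of which lie among the receptor genes, went the way of the other genes, with 19.8 per Mb in selected and 13.0 in ancestral cells on soft gel and 17.8 in selected and 15.0 in ancestral cells on stiff gel, but their strong peaks numbered 30 in selected and 33 in ancestral cells on soft gel, and 27 in selected and 45 in ancestral cells on stiff gel.

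**Figure D1:**
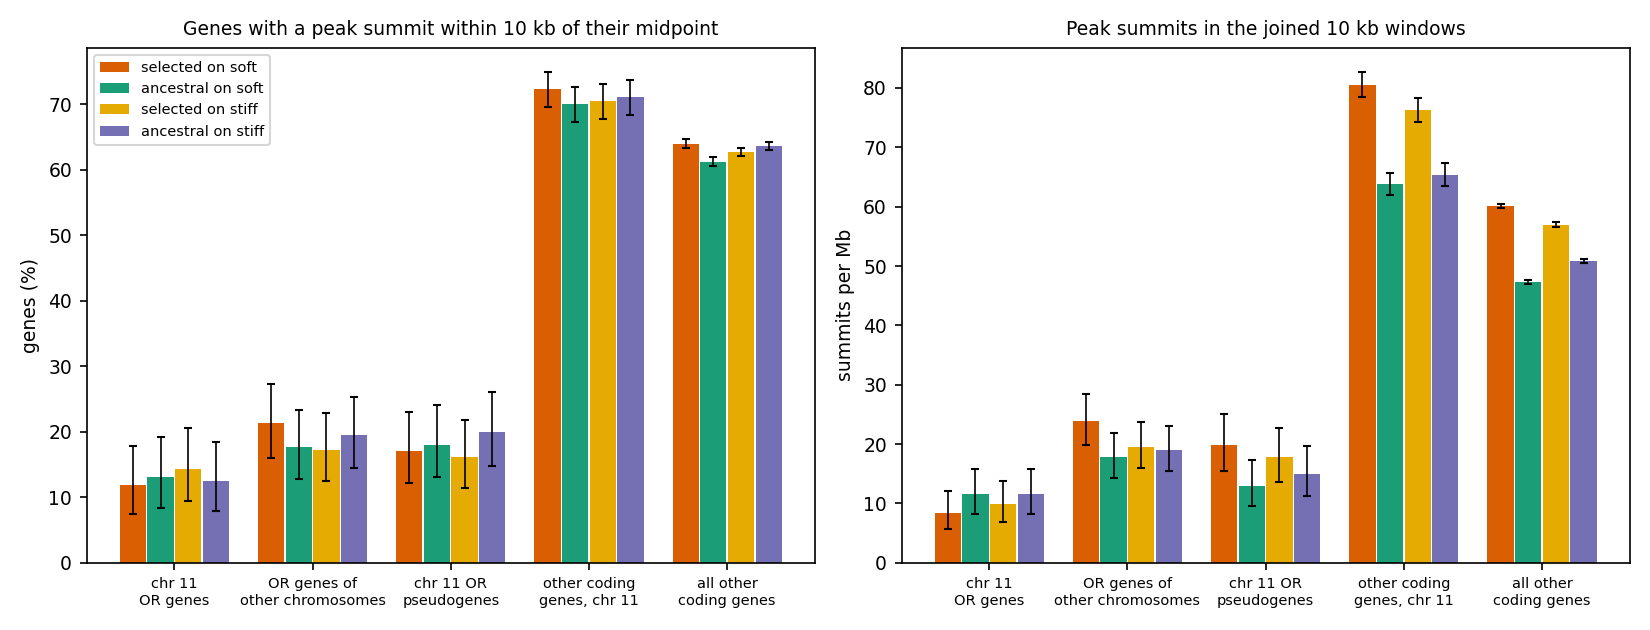
Left, percent of genes with a peak summit within 10 kb of their midpoint. Right, peak summits per Mb of the joined windows reaching 10 kb past each gene, both for 5 gene sets and, in colour, for the 4 peak lists; error bars are exact 95% intervals for counting error, and chromosome 11 receptor genes stand at 11.9% to 14.3% on the left, beside 70.0% to 72.3% for other genes of the chromosome.

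The few peaks at receptor genes ranked near the middle of their lists. Their median fold enrichment was 4.15 (2.83 to 6.98) in selected and 6.13 (4.39 to 11.2) in ancestral cells on soft gel, which put the median at percentile 56.1 of its own list in selected cells and 48.0 in ancestral cells. On stiff gel it was 5.18 (3.67 to 7.71) in selected and 6.08 (4.33 to 11.4) in ancestral cells, at percentiles 58.3 and 49.0 of those lists. Strong peaks numbered 18 of 29 in selected and 35 of 40 in ancestral cells on soft gel, and 25 of 34 in selected and 38 of 40 in ancestral cells on stiff gel.

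The receptor genes lie in 7 blocks separated by more than 1 Mb, and the open sites were spread unevenly over them. The short-arm block from OR52B4 to OR10A3 (chr11:4367263-7941708) holds 67 receptor genes, 30 of which had a peak in at least 1 list and 16 in all 4. The pericentromeric long-arm block from OR4C46 to OR5AK2 (chr11:54603069-56989843) holds 48, and just 2 of these, OR5M8 and OR5M1, had a peak in any list. Within it 39 genes in a row, from OR4C46 to OR5M3, had no summit within 10 kb in any list. That stretch of 1.87 Mb held 1 summit in selected and 0 in ancestral cells on soft gel, and 2 in selected and 0 in ancestral cells on stiff gel. The block from OR9Q1 to OR10V1 had peaks at 5 of 21 genes, the distal block from OR6X1 to OR8A1 at 8 of 22, the block from OR4B1 to OR4A47 at 1 of 7, OR2AT4 stood alone with a peak, and OR4C13 and OR4C12 had none.

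The blocks differ in what else lies between the receptor genes. The short-arm block holds 43 other protein-coding genes and, taken whole, 37.5 summits per Mb in selected and 29.4 in ancestral cells on soft gel, and 33.9 in both on stiff gel. The peak-poor long-arm block holds 2 other genes and 0.838 summits per Mb in selected and 0 in ancestral cells on soft gel, and 1.26 in selected and 0.419 in ancestral cells on stiff gel. The distal block from OR6X1 to OR8A1 also holds 2 other genes, but in 0.818 Mb against 2.39 Mb for the peak-poor block. It had 13.5 summits per Mb in selected and ancestral cells on soft gel and 9.78 in both on stiff gel. The block from OR9Q1 to OR10V1 holds 14 other genes in 1.69 Mb and had 25.4 to 29.6 summits per Mb over the lists. Whether summits per Mb follow the other genes per Mb was not tested. Class I genes, all in the short-arm block, had a peak in at least 1 list at 26 of 55 and in all lists at 12, and class II genes at 21 of 113 and 10. The 12 class II genes of the short-arm block had a peak at 4, in every list, so class and block cannot be told apart with these counts.

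**Figure D2:**
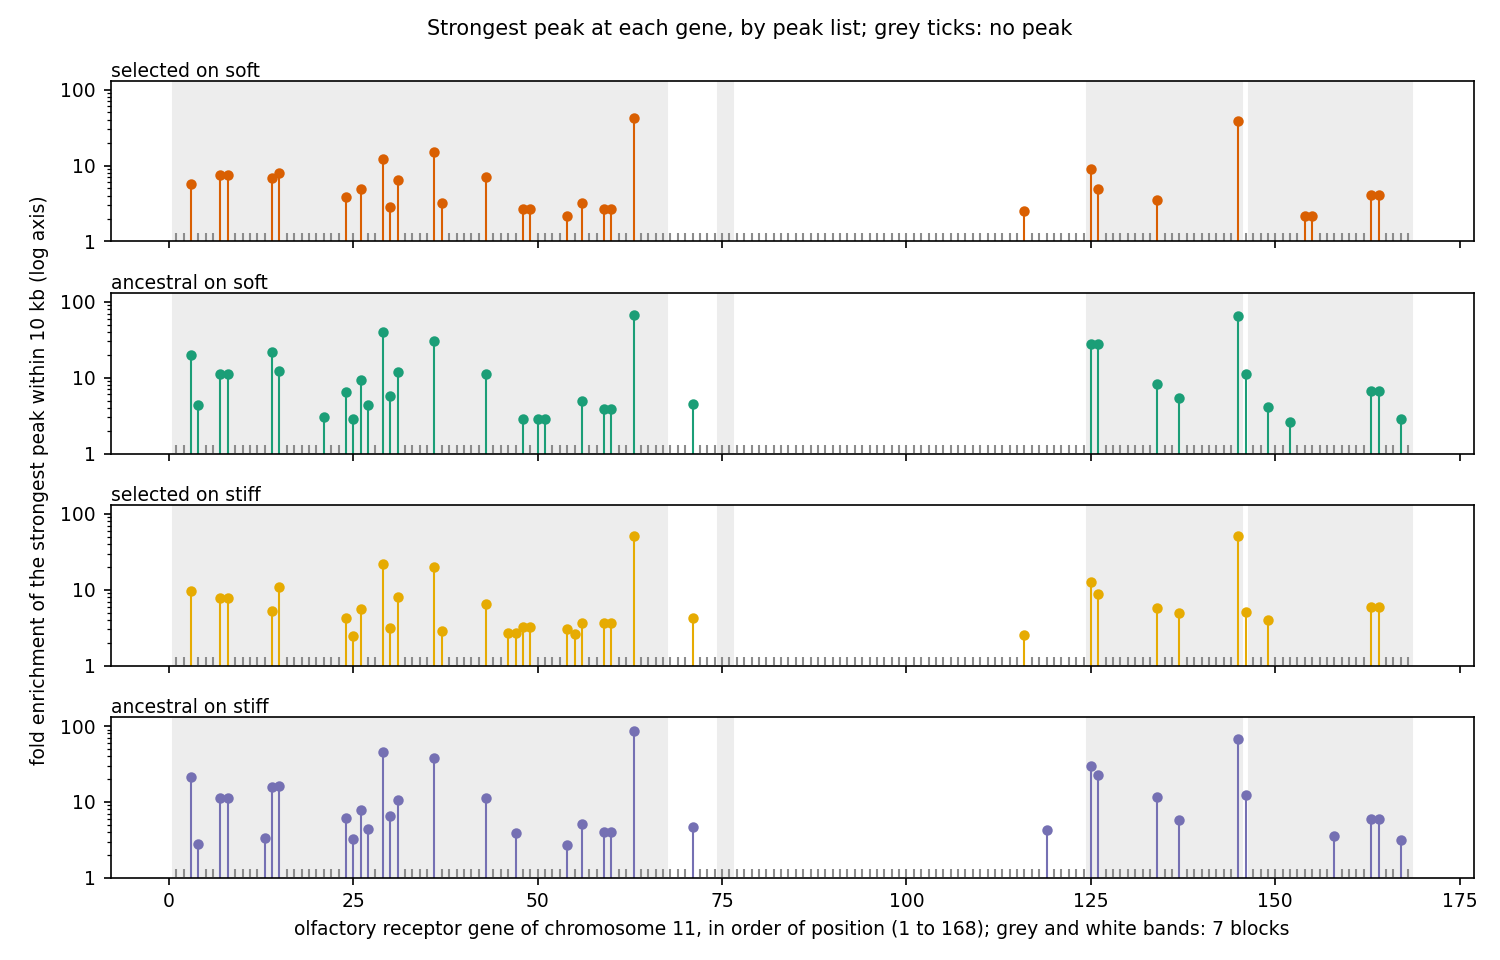
Fold enrichment (log axis) of the strongest peak within 10 kb of each of the 168 receptor genes, in order along chromosome 11, one panel per peak list. Grey ticks at the foot mark genes without a peak, and bands mark the 7 blocks. The long run of grey ticks left of gene 116 ends with the 39-gene run from OR4C46 to OR5M3. Heights are comparable within a panel only.

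Merging overlapping peaks of the lists gave 54 open regions at receptor genes, and 21 of these (38.9%; 25.9% to 53.1%) were in all 4 lists, against 43.7% of the regions of the whole genome. The summit lay inside the annotated receptor gene in 20 regions, within 1 kb of it in 4, 1 to 5 kb away in 10 and 5 to 10 kb away in 20. Most stood clear of other genes: 44 of 54 were over 10 kb from any other protein-coding gene, and 9 were inside one, 6 of them inside the matrix metalloproteinase gene MMP26, whose annotation spans receptor genes. OR51B5 (165335 bp) and OR9Q1 (157736 bp) have the longest models of all receptor genes here, and 12 of the 54 regions lie in them or within 10 kb.

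The strongest regions recurred in every list, 2 of them far above the rest. The first had its summit at chr11:6926485, 4491 bp from OR2D3 and inside the zinc finger gene ZNF215, whose promoter it overlaps. Its fold enrichment was 41.8 in selected and 67.6 in ancestral cells on soft gel, and 50.6 in selected and 86.9 in ancestral cells on stiff gel, at percentiles 94.0 to 96.2 of the lists. The second, at chr11:59707056, lay 5860 bp from OR10V1 with no other protein-coding gene nearer than PATL1 at 38019 bp. Its fold enrichment was 38.8 in selected and 65.6 in ancestral cells on soft gel, and 51.6 in selected and 67.8 in ancestral cells on stiff gel, at percentiles 93.0 to 95.8. The first thus lay at another gene's promoter and the second in DNA between genes.

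Several class I regions followed in strength. Inside the long OR51B5 model, the region with its summit at chr11:5367550 had a fold enrichment of 12.3 in selected and 39.5 in ancestral cells on soft gel, and 22.04 in selected and 46.2 in ancestral cells on stiff gel, at percentiles 83.2 to 88.0. A region 2348 bp from OR52H1 had 15.1 in selected and 30.1 in ancestral cells on soft gel, and 20.3 in selected and 37.9 in ancestral cells on stiff gel. Inside OR52K1 the values were 5.67 in selected and 19.9 in ancestral cells on soft gel, and 9.77 in selected and 21.3 in ancestral cells on stiff gel. All 3 had peaks in each list and ranked above the median peak there.

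Near OR51S1, a region 2013 bp away and inside MMP26 had 6.77 in selected and 21.7 in ancestral cells on soft gel, and 5.22 in selected and 15.9 in ancestral cells on stiff gel. Of the 3 regions at this gene it is the one in all lists; the promoter region (fold enrichment 4.10 on soft and 3.30 on stiff gel) and another at 7920 bp (3.87 on soft and 3.91 on stiff gel) were listed in ancestral cells only. At OR52N2, whose promoter is printed above, the values were 6.98 in selected and 11.3 in ancestral cells on soft gel, and 6.54 in selected and 11.4 in ancestral cells on stiff gel. A region 348 bp from OR51D1, also within 10 kb of OR51E1, had 7.46 in selected and 11.3 in ancestral cells on soft gel, and 7.71 in selected and 11.3 in ancestral cells on stiff gel. OR51E1 is known from prostate tissue, as is OR51E2, the receptor gene next to it, which had no peak in any list.

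Other class I genes with a peak in every list were OR51T1, OR51M1, OR52A5, OR51B6 and OR51V1, which is described with the globin genes. OR51T1 had a strongest peak of 8.08 in selected and 12.3 in ancestral cells on soft gel, and of 11.02 in selected and 16.3 in ancestral cells on stiff gel. OR51M1 and OR51B6 lie within the OR51B5 model and share regions with it, OR51M1 at 6.36 in selected and 12.0 in ancestral cells on soft gel and 8.08 in selected and 10.7 in ancestral cells on stiff gel. OR52A5 was lower, at 3.87 in selected and 6.47 in ancestral cells on soft gel, and at 4.26 in selected and 6.22 in ancestral cells on stiff gel. OR51B6 was the lowest of these in both lists of selected cells, at 2.83 on soft and 3.16 on stiff gel.

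In class II, OR9Q1 held 3 regions present in all lists inside its long model. The strongest in most lists, at chr11:58059131, had 8.91 in selected and 23.8 in ancestral cells on soft gel, and 12.7 in selected and 29.9 in ancestral cells on stiff gel, more than the OR52K1 region in each list. Another, at chr11:58024807, had 4.91 in selected and 27.5 in ancestral cells on soft gel, and 8.82 in selected and 22.9 in ancestral cells on stiff gel, and also counted for its neighbour OR6Q1. That region overlaps the RefSeq promoter of another gene, LOC107984331. OR8B2 and OR8B3 shared a region inside OR8B3, with 4.15 in selected and 6.65 in ancestral cells on soft gel and 5.95 in selected and 5.94 in ancestral cells on stiff gel. OR5B3, OR2AG2, OR10A2 and OR10A5 also had a peak in every list, with the strongest at 2.69 to 5.80 in selected and 3.87 to 11.7 in ancestral cells. OR5A1, which detects beta-ionone, and OR5AN1, a receptor for musk odorants, had no peak in any list.

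The beta-globin genes, which are silent outside erythroid cells, lie inside the class I cluster between OR51V1 and OR51B4. OR51V1 had a region 4329 bp away, 20453 bp from HBB, in all lists, with 4.91 in selected and 9.36 in ancestral cells on soft gel and 5.51 in selected and 7.77 in ancestral cells on stiff gel. OR51B4, on the other side, had a region 9537 bp away and 21532 bp from HBE1, listed in ancestral cells only, with 4.39 on soft and 4.43 on stiff gel. Of the 5 globin genes, HBB and HBD shared a peak in every list (2.56 in selected and 6.07 in ancestral cells on soft gel, 2.79 in selected and 4.48 in ancestral cells on stiff gel), HBE1 had one in ancestral cells on stiff gel alone (3.63), and HBG1 and HBG2 had none.

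On soft gel, the comparison of selected with ancestral cells asks whether accessibility differed after selection. Unshared peaks, which overlap no peak of the other list by even 1 bp, were counted in both directions. In selected cells 6 of the 29 peaks at receptor genes were unshared (20.7%; 8.0% to 39.7%), against 35.8% of all peaks of that list. In ancestral cells 18 of 40 were (45.0%; 29.3% to 61.5%), against 21.7% of all peaks, so the balance at receptor genes ran opposite to that of the whole lists. That opposition was not seen among strong peaks, where the unshared share of the whole lists was 15.3% in selected and 26.4% in ancestral cells, and at receptor genes 0 of 18 and 17 of 35. It was not seen either with 54789 peaks taken from each list, from the highest −log10 q-value down, where the whole lists stood at 14.7% in selected and 15.2% in ancestral cells. None of the 6 unshared peaks of selected cells was strong, with fold enrichments of 2.14 to 3.18, and 13 of the 18 of ancestral cells were strong, at 2.60 to 11.2. Over all unshared peaks of the lists 14.7% were strong in selected and 61.6% in ancestral cells, so this contrast was shared with the lists as a whole. At the other protein-coding genes of chromosome 11 the shares were 42.2% in selected and 19.8% in ancestral cells, and at receptor genes of other chromosomes 38.4% in selected and 20.4% in ancestral cells. The lower background and the smaller share of strong peaks in selected cells move with this difference, and their part in it was not tested.

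By gene, 6 receptor genes had a peak in selected cells on soft gel only (3.57%), against 2.11% of all protein-coding genes: OR52B6, OR56A5, OR52B2, OR5M8, and OR10G4 with OR10G9, which share a peak. The 5 regions behind them had fold enrichments of 2.14 to 3.18. OR10G4, a receptor for guaiacol, had its peak inside the gene at 2.14, with a pileup height of 30 where the lowest in the list was 27. In ancestral cells on soft gel only, 12 genes had a peak (7.14%), against 2.11%: OR52M1, OR51L1, OR52A1, OR51B4, OR52L1, OR56A4, OR4S1, OR5B21, OR2AT4, OR8D4, OR10S1 and OR8B12. The highest was at OR2AT4, a receptor for a sandalwood odorant that is also known from skin keratinocytes, with 11.2 at 3586 bp from the gene. It was followed by OR5B21 with 5.43 and OR4S1 with 4.45. OR2AT4, OR5B21 and OR4S1 each had a peak in selected cells on stiff gel as well (5.14, 5.00 and 4.26), so selected cells on soft gel were the single list without one. Like gene sets also exceeded 2.11% in both directions here. Receptor genes of other chromosomes stood at 7.7% for selected and 4.5% for ancestral cells, the reverse order. The receptor pseudogenes of chromosome 11 stood at 2.9% and 3.9%. An excess over all protein-coding genes was therefore not particular to the receptor genes of chromosome 11.

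On stiff gel the same comparison gave 8 unshared peaks of 34 in selected cells (23.5%; 10.8% to 41.2%), against 26.8% of all peaks, and 14 of 40 in ancestral cells (35.0%; 20.6% to 51.7%), against 21.7%. Of these, 1 of 8 was strong in selected and 13 of 14 in ancestral cells, against 14.8% and 66.3% of all unshared peaks. In both lists they were weaker than the shared ones, with a median fold enrichment of 2.79 against 6.25 in selected and of 3.46 against 11.5 in ancestral cells. The whole lists showed the same, at 2.57 against 6.025 in selected and 3.25 against 9.23 in ancestral cells. With the same number of peaks from each list, the order on stiff gel turned round, at 2 of 19 in selected and 1 of 18 in ancestral cells, against 12.0% and 13.1% of all peaks. On soft gel it was then 0 of 14 in selected and 6 of 20 in ancestral cells. By gene, OR52B6, OR52E4, OR56A3, OR56A5, OR52W1, OR5M8 and OR8D4 had a peak in selected cells only (7 genes, 4.17%, against 1.52% of all genes). OR52M1, OR51F2, OR51B4, OR5M1, OR10D3 and OR8B12 had one in ancestral cells only (6 genes, 3.57%, against 2.11%). With selected cells given first, these shares were 3.6% and 4.5% for receptor genes of other chromosomes. For the receptor pseudogenes of chromosome 11 they were 3.9% and 7.8%.

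Some differences recurred on both gels. The lists of ancestral cells shared 7 of the 54 regions that were in neither list of selected cells (13.0%; 5.4% to 24.9%), against 6.39% of regions genome-wide, and the lists of selected cells shared 3 that were in neither list of ancestral cells (5.56%; 1.2% to 15.4%), against 9.72%. By gel instead, 0 regions were in both lists on soft gel alone, against 0.783% genome-wide, and 0 in both on stiff gel alone, against 1.17%. The 7 lay at OR52M1, OR51S1 (2 regions), OR52A1, OR51B4, OR51B5 and OR8B12, with fold enrichments of 2.83 to 4.43. The 3 lay at OR52B6 inside TRIM5, at OR56A3 and at OR5M8, with 2.49 to 3.23, and none of the 3 was strong in any list. All these regions, of either kind, were weak, with none above percentile 40.9 of a list. With 54789 peaks taken from each list, OR52B6, OR56A3, OR5M8 and OR51B4 had no peak in any list. The region at OR5M8 was 1 of just 2 within 10 kb of a receptor gene in the peak-poor long-arm block. Its 2 peaks overlap in part, with summits at chr11:56497854 on soft and chr11:56497254 on stiff gel.

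**Figure D3:**
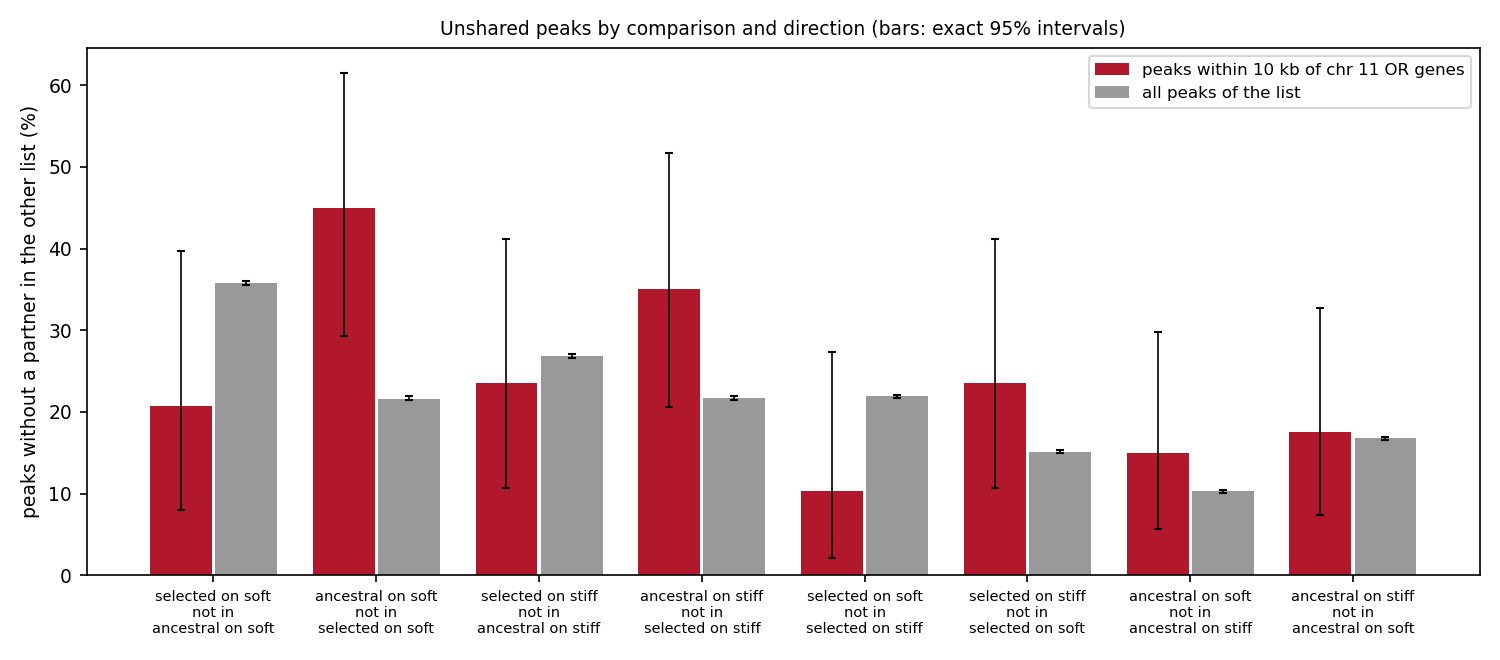
Percent of peaks without a partner in the other list, for each comparison and direction, for peaks within 10 kb of chromosome 11 receptor genes (red) and all peaks of the list (grey); error bars are exact 95% intervals for counting error. On soft gel the red bars stand at 20.7% for selected and 45.0% for ancestral cells, and the grey ones at 35.8% and 21.7%.

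Soft and stiff gel were compared within each population. In selected cells 3 of 29 peaks were found on soft gel only (10.3%; 2.2% to 27.4%), against 21.9% of all peaks, and 8 of 34 on stiff gel only (23.5%), against 15.1%. None of the 3 was strong, at 2.14 to 2.56, and 5 of the 8 were, at 2.50 to 5.14. OR10G4 and OR10G9 had a peak on soft gel only (2 genes, 1.19%, against 1.09% of all genes), and OR52A1, OR52E4, OR52E5, OR52W1, OR4S1, OR5B21, OR2AT4 and OR8D4 on stiff gel only (8 genes, 4.76%, against 1.16%). In ancestral cells 6 of 40 peaks were found on soft gel only (15.0%; 5.7% to 29.8%), against 10.3%, and 7 of 40 on stiff gel only (17.5%; 7.3% to 32.8%), against 16.8%. OR51L1, OR56A3, OR52L1, OR56A4, OR8D4 and OR10S1 had a peak on soft gel only (6 genes, against 0.580% of all genes), and OR51F2, OR52E5, OR52B2, OR5M1 and OR10D3 on stiff gel only (5 genes, against 1.23%). Receptor genes of other chromosomes stood at 5.88% on soft and 1.36% on stiff gel only in selected cells. In ancestral cells they stood at 3.17% on soft and 2.71% on stiff gel only. The 2 stiffness comparisons share lists with the 2 comparisons of selected with ancestral cells.

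Receptor promoters also differed in sequence from those of other genes. The 135 receptor promoters had a median GC content of 37% and 1 CpG dinucleotide, against 63% and 22 for the 15678 promoters of other protein-coding genes, and 36 (26.7%) held none, against 1.68%. A peak overlapped 1 receptor promoter (0.741%) in selected and 2 (1.48%) in ancestral cells on soft gel, and 1 in selected and 2 in ancestral cells on stiff gel. Of all promoters in the table, 68.0% carried a peak in selected and 66.0% in ancestral cells on soft gel, and 69.1% in selected and 66.8% in ancestral cells on stiff gel. Promoters of other genes that were as poor in CpG carried peaks more often. With 0 to 2 CpG dinucleotides, 0 of 109 receptor promoters had a peak in any list, which allows a share of up to 3.33% by the exact 95% interval, and 12.5% to 13.4% of 1430 other promoters did. With 3 to 5, the numbers were 0 of 24 and 22.7% to 26.2% of 1513. The 2 promoters with a peak were those of the members with the most CpG dinucleotides. Among 179 promoters of receptor genes on other chromosomes, also with a median of 1 CpG, at most 2 carried a peak in any list.

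**Figure D4:**
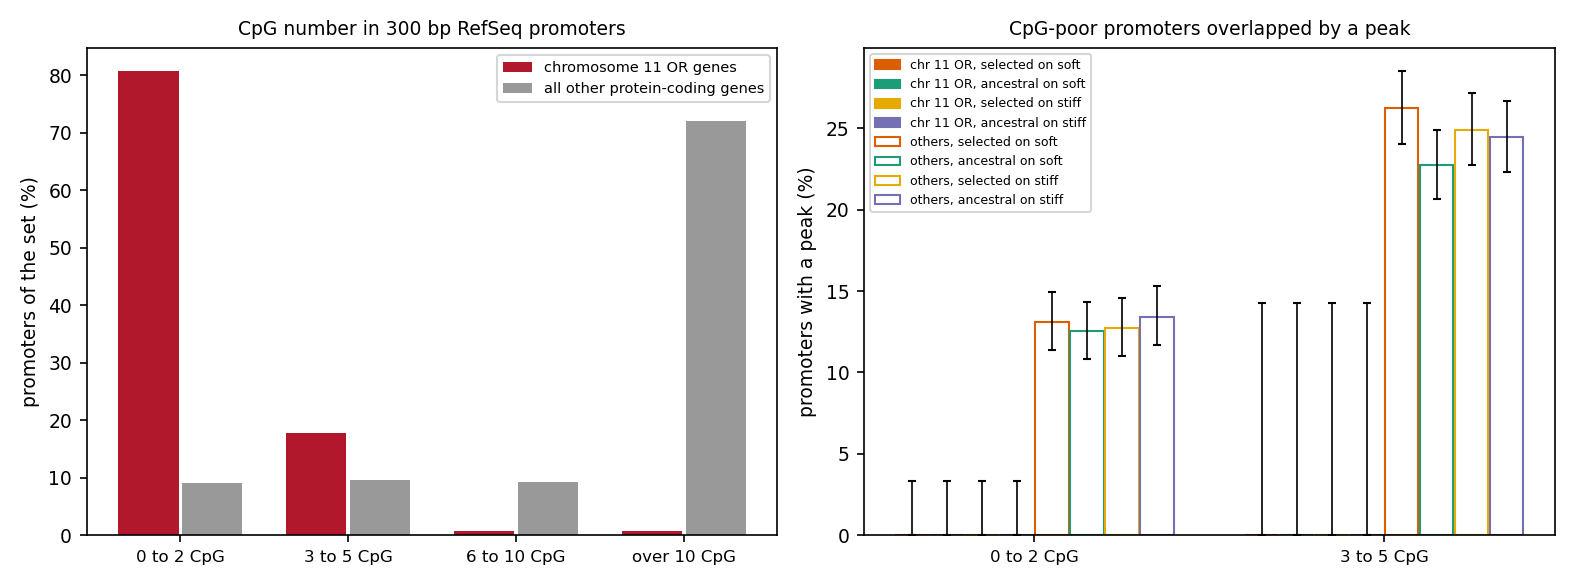
Left, percent of promoters by number of CpG dinucleotides in the 300 bp window, for chromosome 11 receptor genes (red) and all other protein-coding genes (grey). Right, percent of promoters overlapped by a peak in the CpG-poor classes, filled for receptor genes and open for others, by peak list; receptor promoters stand at 0 in both classes and lists, and error bars are exact 95% intervals.

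Motif letters were counted on both strands of the same windows. The TATA box TATAAA occurred in 35.6% of receptor promoters and 9.41% of other promoters, and the homeodomain core TAATTA, which homeobox factors such as LHX2 bind, in 24.4% and 3.16%. The AP-1 letters TGANTCA occurred in 11.1% and 5.71%, the E-box CANNTG in 76.3% and 64.4%, and CCCNNGGG, the core bound by EBF factors of olfactory neurons, in 8.15% and 21.8%. The A+T-rich letters were the more frequent and the G+C-rich ones the less frequent in receptor promoters, whose GC content is the lower. Of the 15 receptor promoters with TGANTCA, that of OR51S1 carried a peak. A match is a description of the letters and no evidence of binding.

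The genes that serve these receptors had summits nearby about as often as other genes, of which 89.7% to 90.3% had one. Of 16 olfactory signalling genes, 15 had a summit within 10 kb in selected and 16 in ancestral cells on soft gel, and 15 in selected and 16 in ancestral cells on stiff gel. The exception in selected cells was ANO2, the calcium-activated chloride channel of olfactory cilia, with a strongest peak of 4.22 on soft and 3.63 on stiff gel in ancestral cells. Some of the 16, such as GNB1, are used by most cell types. Of 8 genes for receptor trafficking, 7 had a peak in each list and RTP1, which carries receptors to the cell surface, had none. Of 16 regulators of receptor choice, 15 had a peak in selected and 15 in ancestral cells on soft gel, and 16 in selected and 15 in ancestral cells on stiff gel. The homeobox gene EMX2 had peaks in selected cells only, with a strongest one of 4.21 on soft and 3.89 on stiff gel, and EBF2 lacked one in selected cells on soft gel. Among 12 olfactory neuron markers 9 had a peak in selected and 10 in ancestral cells on either gel, and RTP1 and STOML3 had none in any list. All 10 genes expressed in most cells had one in every list. At promoters in the RefSeq table the signalling genes had a peak at 4 to 6 of 12 over the lists, and the olfactory neuron markers at 1 to 3 of 10, against the 66.0% to 69.1% of all promoters given above. The genes expressed in most cells had a promoter peak at 6 to 7 of 8. The GAPDH promoter had none in any list, so a missing promoter peak does not by itself mark a silent gene.

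The 10 kb limit did not fall in a gap between values. Nearest inside it were OR51T1 at 9379 bp (fold enrichment 8.08) in selected and OR51B4 at 9589 bp (4.39) in ancestral cells on soft gel, and OR51T1 at 9318 bp (11.02) in selected and OR5M1 at 9916 bp (4.33) in ancestral cells on stiff gel. Just outside, in every list, was a peak at OR2AG2, 10121 bp away (2.76) in selected and 10125 bp (4.39) in ancestral cells on soft gel, and 10125 bp (3.23) in selected and 10140 bp (3.44) in ancestral cells on stiff gel. OR2AG2 counted as having a peak in each list through another summit at 8013 bp.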

How the data were processed

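The 16 ATAC-seq samples entered 4 peak lists, 1 per group. MACS2 2.2.7.1, Bowtie2 2.4.5, Trimmomatic 0.36, MultiQC 1.1, FastQC 0.11.4 and GRCh38 are listed, per the submitters' processing notes. The filters, and how the 4 samples of a group were combined, are not stated in these sources. Per the file headers, each deposited peak has a pileup signal at its summit, a −log10 q-value and a fold enrichment, all computed by the authors. The deposited pileup is a whole number. The fold enrichment was read as the pileup plus 1 divided by the background plus 1, with 1 genome-wide background per list. Read totals per sample were not analysed here.

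Gene positions came from RefSeq (GRCh38.p14), without rows listed on sequences other than the chromosomes (20056 protein-coding genes before, 19821 after). Peak lists skip some peak numbers, and 0 of the 168 receptor genes touch a stretch with a skipped number. Shares carry Clopper-Pearson, densities Poisson and medians binomial order-statistic 95% intervals, all exact. A peak was shared when it overlapped the other list's peak by at least 1 bp. The text names genes with a summit in all 4 lists, up to 5 with the strongest unshared peak per comparison and direction, and those with a summit within 1 kb, with further genes named to complete lists or as background. The members and gene lists were chosen with earlier results of these data known. Alternatives were other windows, q-value limits, equal list sizes, overlap rules and sets of genes. Tools were scipy 1.17.1, pandas 2.3.3, numpy 2.4.6 and matplotlib 3.10.9 under python 3.11.15, and the steps were tested on simulated data.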

Additional observations from a re-analysis of the deposited data

Results flagged for a closer look

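The region whose summit lies 6012 bp from OR8D4 differed in direction between the gels: it was listed in ancestral and not in selected cells on soft gel, and in selected and not in ancestral cells on stiff gel. Its fold enrichment was 4.10 in ancestral cells on soft gel and 4.04 in selected cells on stiff gel, each over its own list's background. The difference was not tested, since each group has 1 list. Genome-wide, 0.388% of regions were listed in this pair of lists alone.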

How the results depend on the processing

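No paired analysis was possible because each group has 1 peak list and its columns carry no replicate number; for that reason no replicate could be left out. Over 11 alternatives, 164 of 244 counts, densities and medians kept within 1.5 times the value given or within its interval, and 80 moved. The cause of each move was not tested, beyond the smaller or larger number of genes, peaks or bases that an alternative leaves. None moved when any part of a peak could lie within 10 kb, or when sharing needed 50% of the shorter peak or allowed a gap of 500 bp. Leaving out stretches with skipped numbers kept all 168 genes. The 28 values of that alternative, counted among the 164, therefore could not move.

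Values below are given in the order selected on soft, ancestral on soft, selected on stiff and ancestral on stiff gel. Genes with a peak numbered 9, 11, 10 and 10 within 2 kb and 92, 100, 90 and 91 within 50 kb, where summits per Mb were 16.1, 16.5, 14.9 and 16.7. With the same 54789 peaks from each list they numbered 14, 19, 19 and 16, at 4.04, 5.78, 5.49 and 5.20 summits per Mb and median fold enrichments of 7.29, 12.1, 8.08 and 16.1. Strong peaks alone gave 18 genes and 5.20 per Mb in selected cells on soft gel. Around the midpoint, ancestral cells had 22 genes on soft and 21 on stiff gel.

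Unshared peaks of selected against ancestral cells on soft gel numbered 3 in selected and 6 in ancestral cells within 2 kb, 27 and 32 within 50 kb, and 0 and 6 at equal list size, with 0 strong ones in selected cells. On stiff gel they numbered 4 in selected and 6 in ancestral cells within 2 kb, 20 and 34 within 50 kb, and 2 and 1 at equal list size, with 1 strong one in selected cells and 9 in ancestral cells once genes with a neighbouring protein-coding gene were left out (149 remained). Genes with a peak in 1 list only numbered 1 in selected and 3 in ancestral cells on soft gel and 3 in selected and 3 in ancestral cells on stiff gel within 2 kb, 11 in ancestral cells on stiff gel within 50 kb, 0 in selected and 5 in ancestral cells on soft gel and 3 in selected and 0 in ancestral cells on stiff gel at equal list size, and 0 on soft and 1 on stiff gel in selected cells with strong peaks.

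Between gels in selected cells, unshared peaks numbered 3 on stiff gel within 2 kb, 23 on soft and 13 on stiff gel within 50 kb, 0 on soft and 5 on stiff gel at equal list size, 0 on soft gel among strong peaks and 1 on soft gel without OR51B5 and OR9Q1; genes numbered 3 on stiff gel within 2 kb, 10 on soft gel within 50 kb, 0 on soft and 5 on stiff gel at equal size, and 0 on soft gel with strong peaks. In ancestral cells, unshared peaks numbered 3 on soft and 3 on stiff gel within 2 kb, 13 and 14 within 50 kb, 2 and 0 at equal size, 3 on soft gel among strong peaks and 3 on soft gel without neighbouring genes; genes numbered 3 and 2 within 2 kb, 14 on soft gel within 50 kb, 3 and 0 at equal size, and 2 on soft gel with strong peaks.

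The midpoint window and leaving out OR51B5 and OR9Q1 were chosen after the data were seen. With at most 40 peaks at these genes in a list, differences of a few peaks were not detectable beyond counting error.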
